A study of Homo sapiens with 5 samples.

Results

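The histone genes measured here were the 90 of 25343 gene symbols in the count table whose names start with HIST1H to HIST4H, H1F, H2AF other than H2AFX, or H3F3. Of these, 73 were clustered (replication-dependent) histone genes and 17 were variant histone genes. The clustered set held 6 H1, 17 H2A, 18 H2B, 14 H3 and 15 H4 genes plus 3 pseudogenes, and the variant set included the pseudogene H3F3AP4 and the antisense RNA H1FX-AS1. The choice used names and no measured value, although earlier results of these data were known when it was made.

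RNA was sequenced from 5 stable lines of H157, a human lung carcinoma line, with 1 library per line. The vector line carried the control plasmid (a pCDNA plasmid by its label, although stable lines were made with pCDH lentivirus and puromycin by the methods). The other 4 lines carried YAP alone, YAP plus the full length of TEAD4 (YAP/TEAD4-FL, here TEAD4-FL), YAP plus its short isoform without the DNA-binding domain (YAP/TEAD4-S, here TEAD4-S), or YAP with RBM4, a splicing factor (YAP/RBM4). No line had a replicate, so no test between lines was possible, and the 4 comparisons with vector share that 1 library. The totals were 1399452 to 3015173 expected counts per library, lowest with YAP and highest with TEAD4-S. In CPM (counts scaled to a common library total), YAP1 stood at 33.1 with vector and at 59.4 to 136 in the other libraries, TEAD4 at 121 with TEAD4-FL, 50.03 with TEAD4-S and 3.57 to 5.73 elsewhere. RBM4 had 167 CPM in the RBM4-labelled library against 150 CPM with vector, a ratio of 1.12 (95% interval 0.965 to 1.29), so it is called the RBM4-labelled library. RBM4 was at 202 CPM with YAP (1.35, 1.15 to 1.59), 198 CPM with TEAD4-FL (1.32, 1.14 to 1.53) and 132 CPM with TEAD4-S. The epithelial genes KRT8, KRT18 and CDH1 had 80.4 CPM or more in every library, while EPCAM and KRT19 had at most 2.29 CPM. The squamous gene TP63 was listed at 0, and KRT5, KRT6A and SOX2 had at most 1.33 CPM. Of the fibroblast genes, COL1A2 was listed at 0, while COL1A1 had 3.10 to 14.5 CPM and PDGFRB 3.65 to 8.78 CPM. The mesenchymal genes VIM, FN1 and CDH2 had 253 to 517, 58.4 to 197 and 5.12 to 12.9 CPM. The leukocyte gene PTPRC had 213 to 254 CPM, but the blood genes CD14 and HBB had at most 4.20 and 1.22 CPM. Over the 15024 genes compared, the median log2 ratio to vector was 0.0006 with YAP, 0.09 with TEAD4-FL, -0.29 with TEAD4-S and 0.17 in the RBM4-labelled library, and ratios with TMM factors, which bring these medians near 0, are given beside the named ratios to vector whose interval moves to another side of 1 (above, below or spanning it). Where 5 values stand in a row they are in the order vector, YAP, TEAD4-FL, TEAD4-S and RBM4-labelled, and 4 ratios in a row are those of the last 4 to vector.

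Histones package DNA into nucleosomes, with H2A, H2B, H3 and H4 in the core and H1 on the linker. Clustered histone genes lie in a few dense loci, are transcribed mainly in S phase, and give mRNAs that end at a conserved stem-loop bound by SLBP instead of a poly(A) tail. Variant genes stand alone, are made through the cell cycle and give ordinary polyadenylated mRNAs, among them the linker histones H1.0 (H1F0) and H1.X (H1FX), the H2A.Z genes H2AFZ and H2AFV, the macroH2A genes H2AFY and H2AFY2, and the H3.3 gene H3F3B. Since clustered transcripts normally lack a tail, their measured level also depends on how RNA was selected, and the methods name both purification of polyadenylated RNA and a kit for total RNA with removal of ribosomal RNA.

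The stem-loop was looked for on hg19 as a stem of GGNNCT and AGNNCC around a loop of TNTN, on the gene's own strand, in the last 300 bases of an annotated transcript (GENCODE) or the 100 bases after its end. It was present in 66 of 67 clustered genes with an annotated coding part, in 0 of 15 variant coding genes, and in 23 of 12263 other coding genes of the same chromosomes (0.188%). The exception was HIST2H2BE, with no annotated transcript ending near its stem-loop, which lies 1729 bases before its annotated end. The form of HIST1H1C below was found in 38 genes. The H4 genes differed from the other core types, since all 14 H4 matches had a stem of GGCC with GGCC, while H1, H2B and H3 matches and 15 of 17 H2A matches had GGCT with AGCC. The 6 sequences that follow belong to the most abundant H1, H2B and H4 genes of the clusters and to 3 genes far below vector in other lines. Each is written 5′ to 3′ on the gene's strand, the capitals mark the stem-loop, and the coordinates are those of the capitals on hg19.
HIST1H1C, chr6:26055972-26055987, minus strand: cccaaaaGGCTCTTTTCAGAGCCaccactg
HIST1H2BK, chr6:27114145-27114160, minus strand: ccccaaaGGCTCTTTTAAGAGCCacttaaa
HIST2H2AB, chr1:149859023-149859038, minus strand: ccccaaaGGCTCTTTTAAGAGCCaccaaag
HIST2H2AC, chr1:149858941-149858956, plus strand: gaccaaaGGCTCTTTTTAGAGCCacccaag
HIST1H3E, chr6:26225824-26225839, plus strand: atccaaaGGCTCTTCTCAGAGCCaaccact
HIST1H4I, chr6:27107433-27107448, plus strand: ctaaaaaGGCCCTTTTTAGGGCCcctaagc

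Many H2A and H2B genes lie head to head and share the stretch between their start sites. The annotation held 12 head-to-head pairs of clustered genes, of which 11 joined H2A with H2B at 169 to 288 bases between the starts, and 1 joined HIST1H3J with HIST1H2BO at 318 bases. The stretches between HIST2H2BE and HIST2H2AC, a pair with low counts in several lines, and between HIST1H2BK and HIST1H2AH, a pair of very unequal level, follow on the plus strand of hg19. The capitals mark the octamer (ATTTGCAT), CCAAT boxes (CCAAT) and TATA boxes (TATAAA), each searched on both strands, and a run of capitals longer than 1 motif marks overlapping matches.
HIST2H2BE and HIST2H2AC, chr1:149858233-149858467, plus strand: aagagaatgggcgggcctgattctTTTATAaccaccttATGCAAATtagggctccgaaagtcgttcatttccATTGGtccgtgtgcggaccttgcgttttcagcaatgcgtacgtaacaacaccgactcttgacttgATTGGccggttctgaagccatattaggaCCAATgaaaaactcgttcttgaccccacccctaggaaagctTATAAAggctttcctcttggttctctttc
HIST1H2BK and HIST1H2AH, chr6:27114635-27114884, plus strand: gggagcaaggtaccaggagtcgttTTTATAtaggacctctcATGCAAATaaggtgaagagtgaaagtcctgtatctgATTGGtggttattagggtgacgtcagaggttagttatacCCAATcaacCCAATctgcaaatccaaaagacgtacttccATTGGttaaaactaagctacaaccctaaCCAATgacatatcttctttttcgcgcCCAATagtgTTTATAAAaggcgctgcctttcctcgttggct

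The stretch between HIST2H2BE and HIST2H2AC held 1 octamer, 3 CCAAT boxes and 2 TATA boxes, and that between HIST1H2BK and HIST1H2AH held 1, 6 and 3. In RefSeq promoter windows (250 bases before to 50 after each start, GRCh38.p14), the octamer was found in 15 of 20 windows of clustered H2B genes and 11 of 16 of clustered H2A genes, against 1.77% of all 35116 windows. It was found in 1 of 14 windows of clustered H3 genes and in none of the 6 H1 and 13 H4 windows. CCAAT boxes stood in 59 of 69 clustered windows against 34.6% of all, and TATA boxes in 46 of 69 against 11.5%. These windows covered 65 of the clustered genes. Of 18 windows of 13 variant genes, 1 held the octamer, 13 a CCAAT box and 3 a TATA box. A match of letters is a description and was not tested as a binding site.

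Clustered histone genes held few counts in all 5 libraries. The 73 genes together held 0.0293% of the counts with vector, 0.0189% with YAP, 0.0217% with TEAD4-FL, 0.0147% with TEAD4-S and 0.0229% in the RBM4-labelled library. How reads were assigned to strands was not tested, so few counts need not mean few transcripts. Of the 73 genes, 26 were listed at 0 in every library, as were 25.4% of all genes in the table, while 23 had a mean of at least 1 CPM, and 5 reached 10 CPM. A count of 0 allows up to 2.14 CPM with YAP and 0.995 CPM with TEAD4-S (3 counts), so these genes were below what this depth can show, and they cannot be called silent.

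By core type, 8 of 15 H4 genes, 6 of 14 H3 genes, 6 of 18 H2A genes, 5 of 20 H2B genes and 1 of 6 H1 genes were at 0 throughout. The H4 genes were HIST1H4A, HIST1H4B, HIST1H4C, HIST1H4D, HIST1H4F, HIST1H4G, HIST1H4J and HIST1H4L, and the H3 genes were HIST1H3A, HIST1H3B, HIST1H3C, HIST1H3G, HIST1H3I and HIST1H3J. The H2A genes were HIST1H2AA, HIST1H2AB, HIST1H2AD, HIST1H2AH and HIST1H2AM with the pseudogene HIST1H2APS1, the H2B genes were HIST1H2BA, HIST1H2BB, HIST1H2BF, HIST1H2BI and HIST1H2BM, and the H1 gene was the testis histone HIST1H1T. HIST1H2BF, HIST1H2BG and HIST1H4F were not found in the annotation, nor was the pseudogene HIST2H2BA. Other RNAs that normally carry no poly(A) tail also had few counts. The 401 small nucleolar and other such RNAs in the table summed to 10.4 to 12.4 CPM in every library, and 1 of them, SCARNA15, passed 1 CPM. Their summed ratios to vector were 0.978 to 1.17 with all intervals spanning 1. How the RNA was selected was not tested by these values.

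Variant histone genes held more counts, 0.0975% with vector and 0.106 to 0.163% in the other 4 libraries, and 11 of 17 passed 1 CPM, 10 of them 10 CPM. The 3 variant genes at 0 in every library were H1FOO, H3F3A and H3F3C. H3F3A, an H3.3 gene, had no count while its processed pseudogene H3F3AP4 had 41.7 to 61.5 CPM. All 50-base windows of the 411-base pseudogene (chr2:175584636-175585046, hg19) are also present in H3F3A, so how the counts were split between the 2 is uncertain. Of the windows of H3F3A, 18.9% occur in other genes, so H3F3AP4 is not read here as the level of H3F3A. Why H3F3A had no count was not tested.

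Levels of different genes were compared per kilobase of annotated exon, as the mean over libraries. H1FX had 308 CPM per kb (chr3:129033614-129035129) and H1F0 215 CPM per kb (chr22:38201236-38203439), and both are single-exon genes. The leading clustered genes were HIST1H2BK with 72.6 CPM per kb and HIST1H1C with 68.9 CPM per kb. The copies HIST2H2AA4 and HIST2H2AA3 had 45.6 and 25.0 CPM per kb, since equal counts were divided by unequal annotated lengths. HIST1H4I and HIST1H1E each had 15.2 CPM per kb, and the H3.3 gene H3F3B had 10.6 CPM per kb. In the head-to-head pair printed above, HIST1H2BK had 28.2 CPM or more in each library while its partner HIST1H2AH was at 0 in all of them.

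The summed clustered level was highest with vector, and the summed variant level was lowest there. The latter depended on H1F0 and H1FX, which held 940 of the mean 1279 CPM of the variant sum. Without them, on library totals, the variant sum was below vector with YAP and TEAD4-S. Clustered genes summed to 292.8 CPM with vector, 188.7 CPM with YAP, 216.5 CPM with TEAD4-FL, 146.9 CPM with TEAD4-S and 229.1 CPM in the RBM4-labelled library. The ratios to vector were 0.644 (95% counting interval 0.556 to 0.745), 0.740 (0.657 to 0.832), 0.502 (0.443 to 0.568) and 0.782 (0.698 to 0.876). Variant genes summed to 975.2, 1296.6, 1434.4, 1058.6 and 1628.0 CPM in the same order, with ratios to vector of 1.33 (1.25 to 1.42), 1.47 (1.39 to 1.55), 1.09 (1.03 to 1.15) and 1.67 (1.58 to 1.76). With TMM factors the ratios of TEAD4-S were 0.617 for the clustered and 1.34 for the variant sum. The intervals are exact binomial (Clopper-Pearson) intervals of the rounded counts and cover counting error only, so they say nothing of the spread between cultures. In bulk RNA, fewer cells in S phase and less histone RNA per cell cannot be told apart.

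**Figure D1:**
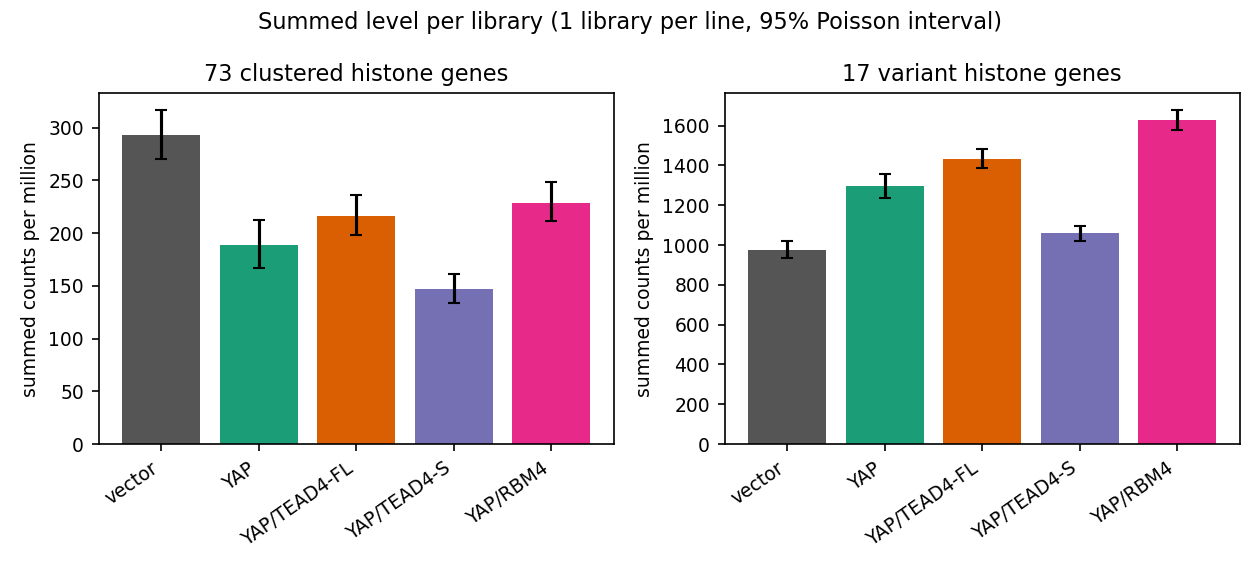
Summed CPM of the 73 clustered (left) and 17 variant (right) histone genes in each library, with 95% Poisson intervals of the counts. The clustered sum was highest with vector at 292.8 CPM and lowest with YAP/TEAD4-S at 146.9 CPM. The variant sum, most of it from H1F0 and H1FX, was lowest with vector at 975.2 CPM.

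A ratio of the sums within a library does not depend on the scaling between libraries. There were 3.33 variant counts for each clustered count with vector (interval 3.05 to 3.65), 6.87 with YAP (6.04 to 7.85), 6.62 with TEAD4-FL (6.04 to 7.28), 7.20 with TEAD4-S (6.52 to 7.98) and 7.11 in the RBM4-labelled library (6.52 to 7.75). The vector library stood apart from the others, and those 4 had overlapping intervals. Against YAP alone, the clustered sum had a ratio of 1.15 (0.988 to 1.34) with TEAD4-FL, 0.779 (0.667 to 0.911) with TEAD4-S and 1.21 (1.05 to 1.41) in the RBM4-labelled library. The variant sum had ratios of 1.11 (1.05 to 1.17), 0.816 (0.771 to 0.866) and 1.26 (1.19 to 1.33). These ratios depended on the scaling. With TMM factors those of TEAD4-S to YAP were 0.973 (0.834 to 1.14) for the clustered and 1.02 (0.963 to 1.08) for the variant sum, the clustered ratio in the RBM4-labelled library was 1.11 (0.958 to 1.29), and the variant ratio with TEAD4-FL was 1.05 (0.994 to 1.11).

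Among the 23 clustered genes that reached a mean of 1 CPM, 11 were at least 2-fold lower than vector with YAP, where 9.57% of all genes compared were. The count was 9 with TEAD4-FL (all genes 6.0%), 16 with TEAD4-S (all genes 11.0%) and 6 in the RBM4-labelled library (all genes 3.47%). For TEAD4-S the count was 10 with TMM factors, a setting for which the share of all genes is not given here. At least 2-fold higher were 1 with YAP (all genes 4.90%), 2 with TEAD4-FL (8.90%), 1 with TEAD4-S (3.50%) and 2 in the RBM4-labelled library (9.22%). Since 18 of the 23 had a mean of 1 to 10 CPM, the shares of all genes of that level are the closer comparison. They were 17.3%, 9.51%, 16.9% and 5.98% for lower and 8.97%, 15.7%, 6.82% and 17.3% for higher, in the same order of lines. The median log2 ratio of the 23 genes was -0.93, -0.68, -1.09 and -0.36, against 0.0006, 0.09, -0.29 and 0.17 for all genes compared. A gene can pass the filter through its level with vector alone, so the count was repeated on the mean of the 4 other libraries. By that mean 22 clustered genes reached 1 CPM, of which 9, 8, 15 and 5 were lower. The shares of all genes past 2-fold under this filter are not given here.

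Of the 23 clustered genes, 13 were below vector in all 4 other libraries, as were 17.9% of all genes compared and 18.2% of those at 1 to 10 CPM. HIST1H3D was above vector in all 4. With vector left out of the filter, 11 of 22 were below it in all 4, against 17.3% of all genes. Several of these genes share their values, since HIST2H2AA3 and HIST2H2AA4 had identical counts, as did HIST2H3A and HIST2H3C, and the copies cannot be told apart. With each such pair counted once, a count added after seeing the data, 11 of 21 were below vector in all 4 libraries, and 10, 8, 14 and 5 of 21 were at least 2-fold lower. Variant genes passed 2-fold from vector about as often as all genes did, with 1 of 11 (9.09%) in each line. These were H2AFJ, lower with YAP (all genes 9.57%), and H2AFB2, lower with TEAD4-FL (6.0%) and TEAD4-S (11.0%) on 4 counts with vector. In the RBM4-labelled library H1F0 was higher (9.22%), though not with TMM factors. Of the 11 variant genes that passed, 4 (H1F0, H1FX, H2AFZ and H3F3AP4) were above vector in all 4 libraries, as were 16.2% of all genes compared, and H2AFV was below in all 4.

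**Figure D2:**
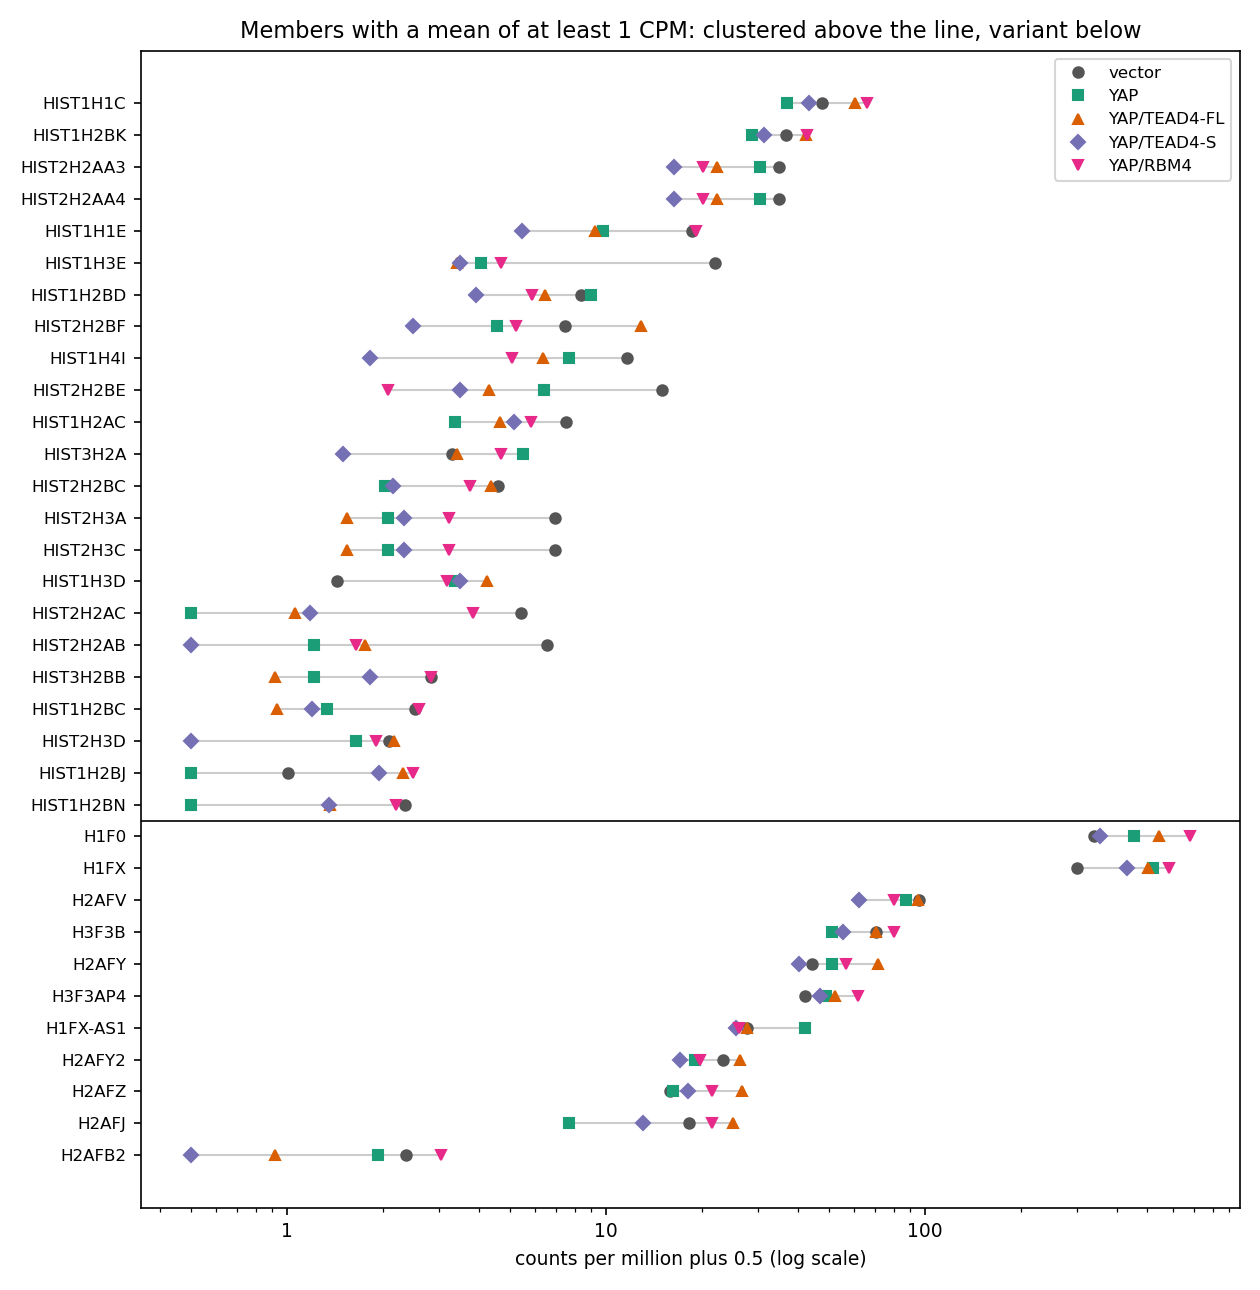
Level of each histone gene whose mean reached 1 CPM in the 5 libraries, as CPM plus 0.5 on a log axis, with 23 clustered genes above the line and 11 variant genes below it. The vector symbol lies farthest right for 13 of the 23 clustered genes and for 1 of the 11 variant genes.

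Ratios of the linker histones of the clusters lay closer to 1 than those of the H3 and H4 genes. Clustered H1 genes summed to 66.7 CPM with vector, 46.4 with YAP, 69.7 with TEAD4-FL, 49.1 with TEAD4-S and 86.3 CPM in the RBM4-labelled library. The ratios were 0.697 (0.511 to 0.94), 1.05 (0.831 to 1.32; 0.979 with TMM factors), 0.736 (0.581 to 0.933) and 1.29 (1.04 to 1.61). With TMM factors the last 2 intervals spanned 1, at 0.906 (0.715 to 1.15) and 1.16 (0.939 to 1.44). HIST1H1C (H1.2; chr6:26055968-26056698) had 47.1, 36.4, 60.1, 42.8 and 65.3 CPM, and its interval passed 1 in the RBM4-labelled library (1.39, 1.08 to 1.79) but not with TMM factors (1.25, 0.969 to 1.61). HIST1H1E (H1.4) had 18.2, 9.29, 8.76, 4.97 and 18.7 CPM. It was low in 3 libraries, with ratios of 0.511 (0.25 to 0.978), 0.482 (0.269 to 0.840) and 0.274 (0.140 to 0.508), and near vector in the RBM4-labelled library at 1.03 (0.662 to 1.61). HIST1H1D, the next H1 gene, had 11 counts over the 5 libraries together.

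Clustered H2A genes summed to 93.2 CPM with vector against 70.0, 55.9, 39.5 and 54.2 CPM, with ratios of 0.751 (0.584 to 0.961), 0.600 (0.478 to 0.750), 0.423 (0.334 to 0.534) and 0.581 (0.466 to 0.725). The identical copies HIST2H2AA3 and HIST2H2AA4 carried most of this level, with 34.4, 30.0, 21.8, 15.9 and 19.7 CPM each. For their sum the ratios were 0.873 (0.662 to 1.15), 0.635 (0.493 to 0.827), 0.463 (0.355 to 0.605) and 0.573 (0.442 to 0.743). HIST2H2AB had 13 counts with vector and 1, 3, 0 and 3 counts in the others. Its ratio was 0.118 (0.00277 to 0.785) with YAP, 0.207 (0.0377 to 0.752) with TEAD4-FL and 0.189 (0.0345 to 0.688) in the RBM4-labelled library. With TEAD4-S the ratio is 0.164 at the floor of 3 counts, and its exact 95% upper limit is 0.233. HIST2H2AC had 4.91 CPM with vector, 0 with YAP, 0.563 with TEAD4-FL, 0.680 with TEAD4-S and 3.35 CPM in the RBM4-labelled library. HIST2H2AB and HIST2H2AC lie tail to tail on chromosome 1, and HIST2H2AC stands head to head with HIST2H2BE. BOLA1 has exons opposite 15.3% of the exon bases of HIST2H2AB, where counts may be shared. HIST1H2AC, the H2A gene next in level, had 6.99 CPM with vector and 2.86 to 5.34 CPM elsewhere, with every interval spanning 1.

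Clustered H2B genes summed to 76.9 CPM with vector, 51.4 with YAP, 72.2 with TEAD4-FL, 46.1 with TEAD4-S and 66.8 CPM in the RBM4-labelled library. The ratios were 0.669 (0.4999 to 0.887), 0.938 (0.754 to 1.17), 0.599 (0.475 to 0.756) and 0.868 (0.698 to 1.08; with TMM factors 0.781, 0.627 to 0.971). The members behind these sums differed. HIST1H2BK, whose stem-loop and shared stretch are printed above, had 36.3, 28.2, 41.8, 31.0 and 42.4 CPM, with all 4 intervals spanning 1. Of its 50-base windows, 57.2% also occur in other genes, so part of its counts is uncertain. HIST2H2BE (chr1:149856009-149858232) had 14.5, 5.88, 3.81, 3.00 and 1.57 CPM. It was lower in every line, with ratios of 0.406 (0.157 to 0.880), 0.263 (0.109 to 0.559), 0.207 (0.0865 to 0.444) and 0.108 (0.0271 to 0.299). HIST2H2BF had 6.97, 4.06, 12.4, 1.98 and 4.71 CPM, highest with TEAD4-FL, and its ratio to vector was 0.284 (0.0905 to 0.776) with TEAD4-S. HIST1H2BD had 7.89, 8.50, 5.95, 3.43 and 5.36 CPM, with an interval below 1 with TEAD4-S alone (0.434, 0.171 to 0.968), and there not with TMM factors (0.534, 0.211 to 1.19).

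The summed level of clustered H3 genes was below vector beyond counting error in every line. It was 37.8 CPM with vector and 12.2, 12.1, 10.3 and 14.9 CPM in the others, with ratios of 0.322 (0.179 to 0.547), 0.321 (0.202 to 0.495), 0.272 (0.174 to 0.417) and 0.395 (0.262 to 0.585). HIST1H3E (chr6:26224427-26227701) made up the larger share of it with vector, at 21.4 CPM, and had 3.57, 2.92, 2.98 and 4.20 CPM elsewhere. In counts these were 46 with vector against 5, 7, 9 and 11, and the 4 other libraries lay close together. Its ratios were 0.167 (0.0517 to 0.418), 0.136 (0.0519 to 0.304), 0.139 (0.0599 to 0.288) and 0.196 (0.0915 to 0.384). The identical copies HIST2H3A and HIST2H3C summed to 12.9 CPM with vector and 3.14, 2.09, 3.65 and 5.47 CPM in the others, with ratios of 0.163 to 0.425 and all intervals below 1 when the copies are summed. HIST1H3D had 2 counts with vector and 4 to 9 elsewhere, with every interval spanning 1. Of its exon bases, 96.6% are shared with another annotated gene on the same strand, so its counts are uncertain.

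Clustered H4 genes had the lowest sum of the clustered core types, with 18.2 CPM with vector and 8.57, 6.68, 1.99 and 6.87 CPM in the others. The ratios were 0.472 (0.225 to 0.919), 0.367 (0.192 to 0.672), 0.109 (0.0379 to 0.260) and 0.378 (0.204 to 0.677). HIST1H4I, the H4 gene that passed 1 CPM, had 11.2, 7.15, 5.84, 1.33 and 4.58 CPM. Its interval lay below 1 with TEAD4-S (0.119, 0.0299 to 0.345) and in the RBM4-labelled library (0.409, 0.187 to 0.851), and with TMM factors also with TEAD4-FL (0.489, 0.234 to 0.984). The identical copies HIST2H4A and HIST2H4B summed to 12 counts with vector and to 1, 2, 0 and 3 counts in the others. Their ratio with TEAD4-S is 0.178 at the floor of 3 counts, with an exact 95% upper limit of 0.256.

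**Figure D3:**
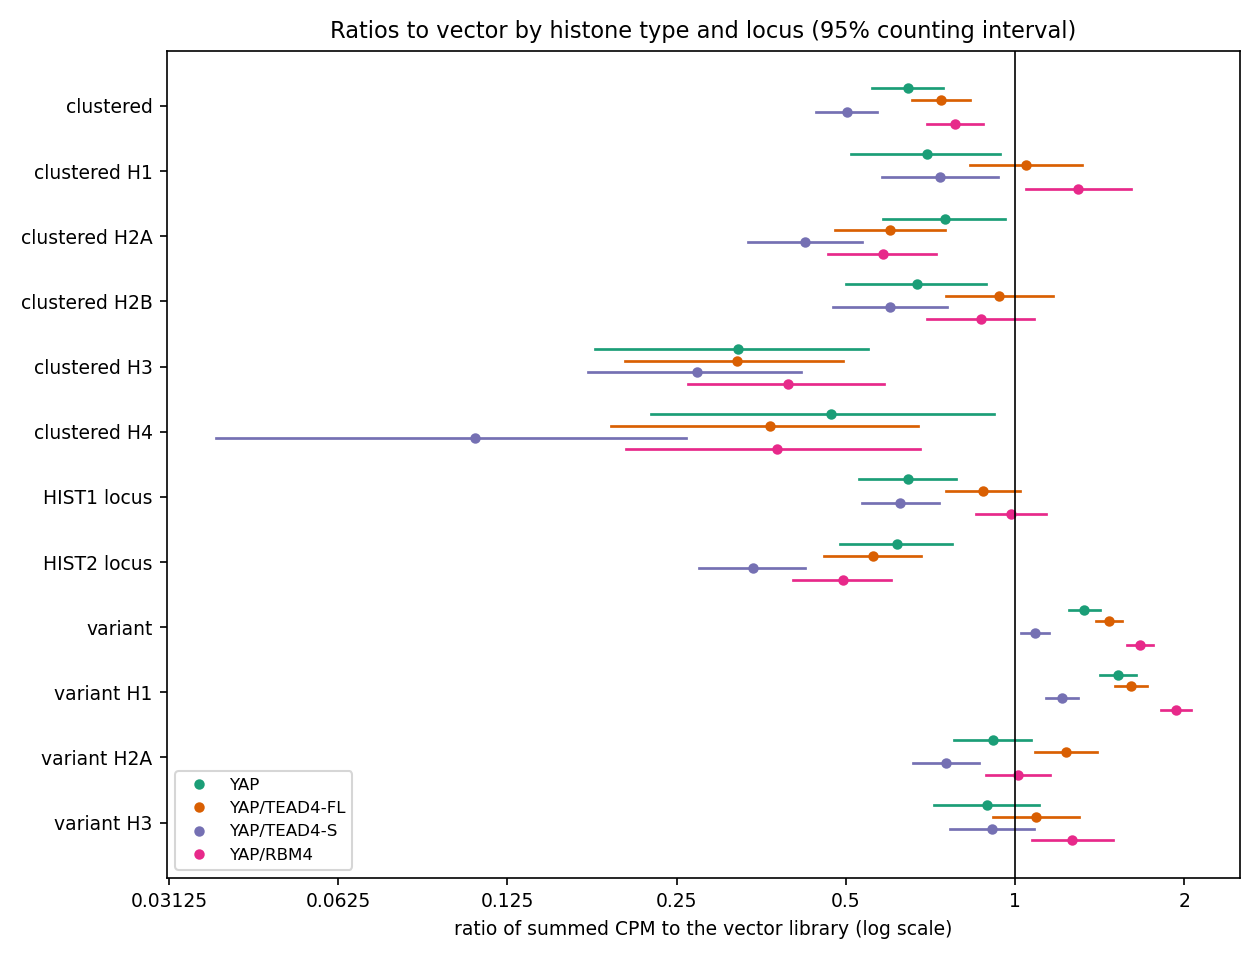
Ratio of summed CPM to vector on a log axis for clustered and variant histone genes, their core types and the HIST1 and HIST2 loci, with 1 point per line and 95% counting intervals. Clustered H3 and H4 points lie at 0.472 or below, and variant H1 points at 1.21 or above.

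By locus, the summed level of the HIST2 locus on chromosome 1 was below vector beyond counting error in every line, and that of the larger HIST1 locus on chromosome 6 with YAP and TEAD4-S. HIST2 genes summed to 125.3, 77.2, 70.1, 42.8 and 61.9 CPM, with ratios of 0.616 (0.488 to 0.772), 0.560 (0.458 to 0.680), 0.341 (0.274 to 0.422) and 0.494 (0.403 to 0.602). HIST1 genes summed to 161.9, 104.3, 141.8, 101.2 and 159.1 CPM. Their ratios were 0.644 (0.528 to 0.785) and 0.625 (0.534 to 0.731) with YAP and TEAD4-S, but 0.876 (0.753 to 1.02) with TEAD4-FL and 0.983 (0.851 to 1.14) in the RBM4-labelled library. The HIST1 result depended on the scaling, since with TMM factors the ratio of TEAD4-FL was 0.820 (0.705 to 0.956) and that of the RBM4-labelled library 0.883 (0.765 to 1.02). Below vector in all 4 lines were 8 of 10 HIST2 genes that passed 1 CPM (6 of 8 with identical copies counted once), 4 of 11 HIST1 genes and 1 of 2 HIST3 genes, against 17.9% of all genes compared. The HIST3 sum was 2.98 to 7.67 CPM, and its intervals spanned 1. HIST3H2A had 2.80, 5.0, 2.92, 0.995 and 4.20 CPM, with a ratio of 0.199 (0.0332 to 0.871; with TMM factors 0.249, 0.0415 to 1.09) for TEAD4-S against YAP.

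Annotated transcripts that run past the stem-loop, some of them spliced to later exons, exist for 18 clustered coding genes, and 49 end within 100 bases of it. The genes with longer transcripts summed to 108.2, 63.8, 58.7, 37.6 and 54.7 CPM, with ratios to vector of 0.590 (0.455 to 0.754), 0.543 (0.438 to 0.673), 0.348 (0.274 to 0.436) and 0.506 (0.407 to 0.624). The genes that end at the stem-loop summed to 180.1, 123.3, 153.5, 107.7 and 170.6 CPM, with ratios of 0.685 (0.571 to 0.824), 0.853 (0.738 to 0.987), 0.598 (0.515 to 0.696) and 0.948 (0.826 to 1.09; with TMM factors 0.852, 0.742 to 0.979). Both classes were thus counted, and the counts per gene do not tell which transcript form gave them. Of the 18 genes with longer transcripts, 5 lie in the HIST2 locus, among them HIST2H2AA3, whose identical copy HIST2H2AA4 ends at the stem-loop, so the 2 classes are not cleanly separated.

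Of the genes with exons opposite these long transcripts, 2 chosen after their values were seen were highest with vector. HFE, an iron-homeostasis gene with exons opposite 14.9% of the exon bases of HIST1H2BC, had 12.6 CPM with vector and 1.43 to 3.76 CPM elsewhere. FCGR1A, an immunoglobulin receptor gene opposite 9.84% of the exon bases of HIST2H2BF, had 12.6 CPM with vector and 1.78 to 3.16 CPM elsewhere. All 8 intervals of their ratios to vector lay below 1. Both were thus below vector in all 4 lines, as were 17.9% of all genes compared and 18.2% of those at 1 to 10 CPM. As the 2 were picked for this trait and values of the other genes opposite are not given, no rate follows. Of the 2 histone genes opposite them, HIST1H2BC had 2.01, 0.836, 0.434, 0.703 and 2.09 CPM, on at most 5.47 counts in a library. HIST2H2BF had 6.97, 4.06, 12.4, 1.98 and 4.71 CPM. Whether these genes shared reads with HFE and FCGR1A was not tested. The headings of the count table name the second strand, while labels and methods do not describe the strand of the kit. VIM-AS1, the antisense RNA of the abundant gene VIM, had 9952 to 19479 CPM against 253 to 517 CPM for VIM itself. How reads were assigned to strands was not tested, so counts of overlapping genes are uncertain. Counts of all other genes may also be affected if the strand setting differed from the kit. HIST1H3E, HIST2H2BE, HIST1H1C and HIST1H4I have no annotated exon of another gene opposite, but the strand of their reads was not tested either.

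The variant sum consisted mainly of H1F0 and H1FX, the linker histones outside the clusters. H1F0 (H1.0, known for its level in differentiated and slowly dividing cells) had 338 CPM with vector, 453 with YAP, 541 with TEAD4-FL, 353 with TEAD4-S and 678 CPM in the RBM4-labelled library. Its ratios were 1.34 (1.20 to 1.5), 1.60 (1.46 to 1.76), 1.04 (0.95 to 1.15; with TMM factors 1.29, 1.17 to 1.41) and 2.01 (1.84 to 2.19). H1FX (H1.X) had 300, 522, 502, 430 and 583 CPM, with ratios of 1.74 (1.56 to 1.94), 1.67 (1.52 to 1.84), 1.43 (1.3 to 1.58) and 1.94 (1.77 to 2.13). The antisense RNA H1FX-AS1, whose gene covers 22.8% of the exon bases of H1FX on the other strand, had 25.1 to 27.2 CPM in 4 libraries and 41.7 CPM with YAP (1.53, 1.05 to 2.24). Without H1F0 and H1FX, the variant sum had ratios to vector of 0.953, 1.16, 0.817 and 1.09.

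Variant H2A genes summed to 197 CPM with vector and 180, 243, 149 and 200 CPM in the others, with ratios of 0.913 (0.778 to 1.07), 1.23 (1.08 to 1.4), 0.754 (0.660 to 0.864; with TMM factors 0.927, 0.812 to 1.06) and 1.01 (0.889 to 1.15; 0.910 with TMM factors). H2AFV, an H2A.Z gene, had 95.7, 86.6, 94.9, 61.9 and 79.7 CPM, below vector beyond counting error with TEAD4-S (0.647, 0.529 to 0.795) and, with TMM factors, also in the RBM4-labelled library (0.748, 0.616 to 0.914). H2AFZ, the other H2A.Z gene, had 15.4, 15.7, 26.3, 17.6 and 21.0 CPM, above vector beyond counting error with TEAD4-FL (1.71, 1.10 to 2.69). H2AFY, which encodes macroH2A1, had 43.8, 50.7, 70.7, 39.8 and 56.2 CPM and was above vector with TEAD4-FL (1.61, 1.24 to 2.09). Other genes have exons opposite parts of both, PITX1-AS1 over 27.7% of the exon bases of H2AFY and H2AZ1-DT over 9.82% of those of H2AFZ. H2AFY2 (macroH2A2) had 16.6 to 25.9 CPM and H2AFJ (H2A.J) 7.15 to 24.6 CPM. For H2AFJ the ratio to vector was 0.403 (0.179 to 0.825) with YAP, on 10 counts, and 0.711 to 1.39 in the other lines with intervals spanning 1.

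Variant H3 counts came from H3F3B and H3F3AP4. H3F3B (H3.3) had 69.9, 50.7, 69.7, 55.1 and 79.4 CPM, with ratios of 0.725 (0.539 to 0.968), 0.996 (0.794 to 1.25), 0.787 (0.627 to 0.988; with TMM factors 0.968, 0.772 to 1.22) and 1.14 (0.916 to 1.41). H3F3AP4 had 41.7, 48.7, 51.8, 46.4 and 61.5 CPM, with an interval beyond 1 in the RBM4-labelled library (1.48, 1.14 to 1.94) and, with TMM factors, also with TEAD4-S (1.37, 1.05 to 1.82). For TEAD4-S the variant H3 ratio was 0.909 on library totals and 1.12 with TMM factors, so its direction depends on the scaling.

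**Figure D4:**
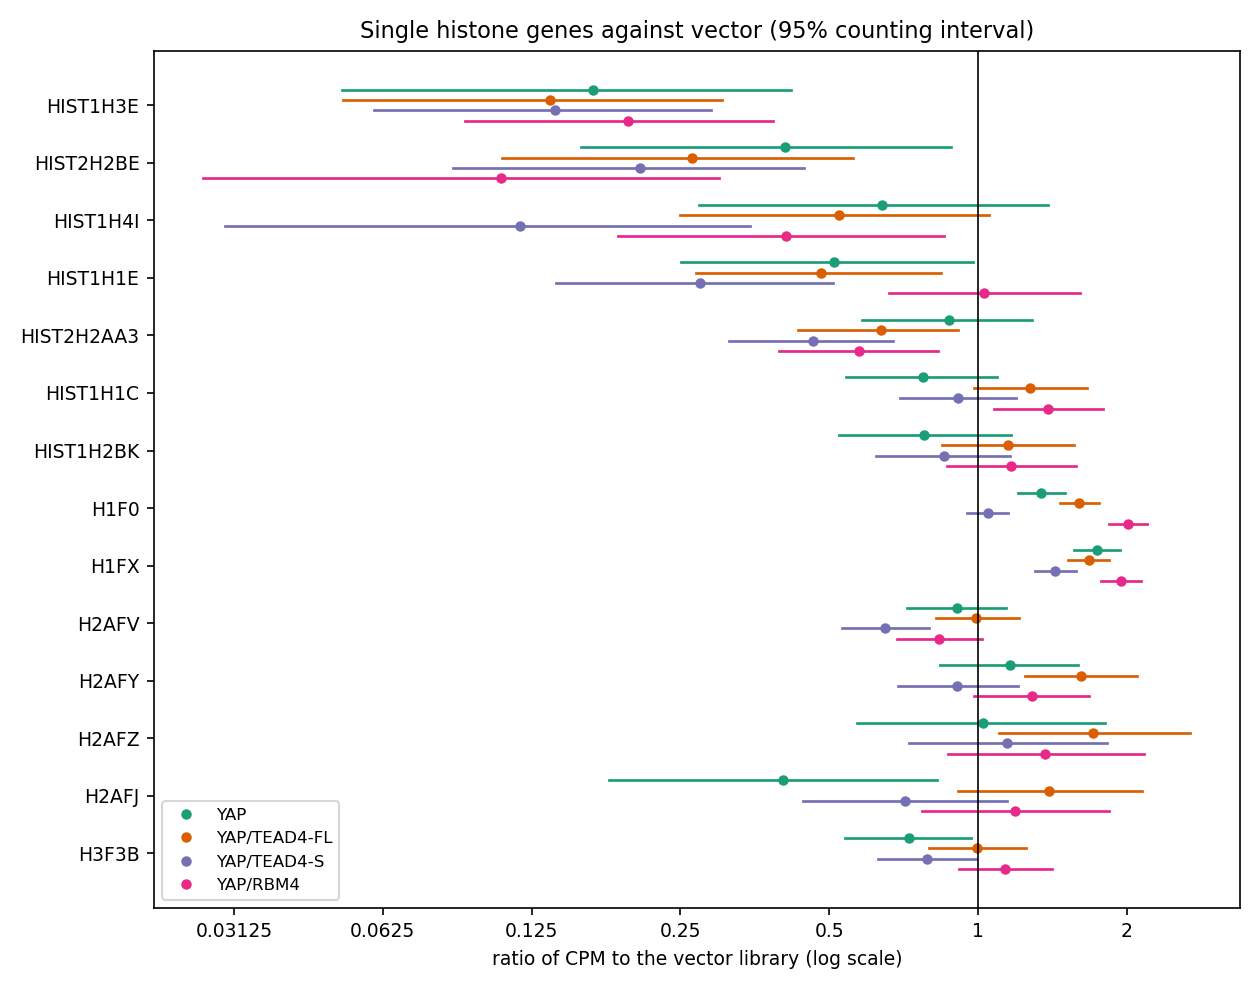
Ratio of CPM to vector for 14 histone genes on a log axis, with 1 point per line and 95% counting intervals. All points of HIST1H3E lie at 0.196 or below, and all points of H1FX at 1.43 or above.

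The comparison of the isoforms of TEAD4 asked how a line with the short isoform differs from one with the full-length protein. Between these libraries the clustered sum had a ratio of 0.678 (0.596 to 0.772) and the variant sum 0.738 (0.703 to 0.775), TEAD4-S to TEAD4-FL, while the median log2 ratio of all genes was -0.38. With TMM factors the ratios were 0.891 (0.783 to 1.01) and 0.970 (0.924 to 1.02), so most of the difference in both sums went with the scaling. The median log2 ratio was -0.43 over the 23 clustered genes and -0.61 over the 11 variant genes, and 6 of 23 were at least 2-fold lower (all genes 11.2%, and 19.3% of those at 1 to 10 CPM). HIST2H2BF had a ratio of 0.160 (0.0541 to 0.388) and HIST1H4I of 0.227 (0.0544 to 0.723). Between these libraries, no clustered gene was at least 2-fold higher (all genes 2.22%, and 4.0% of those at 1 to 10 CPM), and no variant gene passed 2-fold either way.

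The comparisons with YAP alone do not use the vector library. With TEAD4-FL, 5 of 23 were at least 2-fold higher than with YAP (all genes 11.6%) and none lower (3.94%). With TEAD4-S, 3 were higher (6.10%) and 5 lower (8.62%), and in the RBM4-labelled library 4 were higher (13.3%) and HIST2H2BE was lower (2.94%). HIST2H2BF had a ratio of 3.05 (1.20 to 8.58) with TEAD4-FL to YAP. Among variant genes, H2AFJ had ratios of 3.44 (1.75 to 7.55) with TEAD4-FL and 2.94 (1.48 to 6.47) in the RBM4-labelled library, where YAP holds the low value. Between the RBM4-labelled library and TEAD4-FL, 6 clustered genes were higher (all genes 6.66%) and 2, HIST2H2BE and HIST2H2BF, lower (3.55%). HIST1H1E was 1 of the 6, with a ratio of 2.14 (1.26 to 3.75).

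Genes that serve histone supply were compared with vector in the same way, and their counts stand beside the shares over all genes, which were 4.90%, 8.90%, 3.50% and 9.22% for 2-fold or more above vector and 9.57%, 6.0%, 11.0% and 3.47% below. Of 23 genes of histone mRNA 3′ end processing and histone transcription that passed the filter, 2 were at least 2-fold higher and 1 lower than vector with YAP, 4 and 0 with TEAD4-FL, 0 and 0 with TEAD4-S, and 3 and 0 in the RBM4-labelled library. SLBP, the stem-loop binding protein, had 2.14 to 5.42 CPM, and NPAT, the coactivator of clustered histone genes, 1.53 to 3.57 CPM, with all intervals against vector spanning 1. CCNE2 (cyclin E2) had 18.6 CPM with vector and 7.86 CPM with YAP (0.422, 0.195 to 0.837). Of 29 histone chaperones and exchange factors, 1 was higher and 1 lower with YAP, 6 and 0 with TEAD4-FL, 1 and 0 with TEAD4-S, and 0 and 1 in the RBM4-labelled library. CHAF1A, a subunit of the CAF-1 complex that loads new H3 and H4 behind the replication fork, had 5.59, 16.4, 29.6, 12.3 and 11.5 CPM, with all 4 intervals above 1 on library totals and that of the RBM4-labelled library spanning 1 with TMM factors (1.84, 0.915 to 3.95).

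Of 37 S phase genes, 4 stood above vector by 2-fold or more and 1 below with YAP (all genes 4.90% and 9.57%), 12 and 0 with TEAD4-FL (8.90% and 6.0%), 3 and 0 with TEAD4-S (3.50% and 11.0%), and 4 and 0 in the RBM4-labelled library (9.22% and 3.47%). Their median log2 ratios were 0.38, 0.61, 0.06 and 0.32, each above that of all genes. POLD1, the catalytic subunit of DNA polymerase delta, had 9.32, 23.6, 32.1, 14.9 and 19.5 CPM, and LIG1 (DNA ligase 1) 16.8, 34.3, 43.3, 29.8 and 34.4 CPM. The summed level of the 37 genes had ratios of 1.17 (1.08 to 1.26), 1.34 (1.26 to 1.43), 0.957 (0.897 to 1.02) and 1.09 (1.02 to 1.17), where the last 2 were 1.18 (1.10 to 1.26) and 0.982 (0.920 to 1.05) with TMM factors. H2AFX, a histone gene outside the name rule whose mRNA exists both with the stem-loop and with a poly(A) tail, had 11.2 CPM with vector and 24.3, 46.3, 25.5 and 27.1 CPM elsewhere, with ratios of 2.17 (1.25 to 3.83), 4.14 (2.64 to 6.73), 2.28 (1.43 to 3.77) and 2.42 (1.51 to 4.02). CENPA, the centromeric H3 gene, had 2.33 CPM with vector and 5.84 to 8.02 CPM elsewhere. Its intervals against vector spanned 1 with YAP and TEAD4-FL and lay above 1 with TEAD4-S and in the RBM4-labelled library. As a view of common mRNAs, 20 abundant transcripts such as ACTB and GAPDH summed to 7048 CPM with vector and 6443 to 8903 CPM elsewhere. In each library this sum was below the level of the antisense RNA VIM-AS1 alone (9952 to 19479 CPM). Since the assignment of reads to strands was not tested, histone levels and ratios carry the same uncertainty. What set the clustered histone level of the vector library above the others was not tested.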

How the data were processed

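RNA-seq of 5 H157 lines, 1 library each, was used. Per the labels and the methods, reads were aligned to hg19 with Bowtie2 2.2.5 and RSEM (version not given in the sources used here) made the expected counts per gene that the authors deposited. RSEM shares reads that map to several genes between them. The headings of the deposited table name the second strand, the strand of the kit is not described, and the methods differ on RNA selection. The authors' EBSeq comparisons were not used.

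CPM were taken on each library's total. Log2 ratios used a pseudocount of 0.5 CPM. Genes entered comparisons when their mean over the libraries reached 1 CPM, and 2-fold was the limit for counts of genes. Ratios have exact 95% intervals (Clopper-Pearson) of rounded counts and levels exact Poisson intervals, both for counting error only. A count of 0 allows 3 counts. No p-value is given, since lines had no replicates.

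The members and lists were chosen with earlier results of these data known. Members were named when they had a mean of at least 10 CPM, ranked among the 3 highest of their core type, or were at least 2-fold from another line with an interval beyond 1. Positions came from GENCODE on hg19, in which 86 of 90 members were found, and sequences from hg19 and RefSeq. Scripts were tested on simulated data. Alternatives were TMM factors (edgeR 4.0.16), DESeq2 1.42.0 size factors, a total without the 50 most abundant genes, other pseudocounts, filters and folds, and sums without leading or overlapping members. R 4.3.3, Python 3.11.15, pandas 2.3.3, scipy 1.17.1 and matplotlib 3.10.9 were used.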

Additional observations from a re-analysis of the deposited data

How the results depend on the processing

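The clustered sum stayed below vector in all 4 lines under every alternative run. Without its 4 most abundant members, an alternative chosen after seeing the data, its ratio was 0.455 with YAP, 0.505 with TEAD4-FL, 0.294 with TEAD4-S and 0.583 in the RBM4-labelled library, and 0.583 for TEAD4-S against TEAD4-FL. Without HIST1H1C alone it was 0.637 with TEAD4-FL, 0.424 with TEAD4-S and 0.667 in the RBM4-labelled library. For TEAD4-S the ratio was 0.617 with TMM factors, 0.616 with DESeq2 size factors and 0.610 without the 50 most abundant genes in the total. Against TEAD4-FL it was 0.891, 0.895 and 0.847 in that order, and in the RBM4-labelled library DESeq2 size factors gave 0.692.

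The direction of the variant sum depended on H1F0 and H1FX. Without these 2 genes, also left out after seeing the data, its ratio turned to 0.953 with YAP and 0.817 with TEAD4-S, and was 1.16 with TEAD4-FL and 1.09 in the RBM4-labelled library. Without members that overlap another gene or lack an annotation it was 1.20 with YAP, turned to 0.957 with TEAD4-S, and was 0.666 for TEAD4-S against TEAD4-FL. Scaling moved it to 1.38 (TMM) and 1.37 (DESeq2) with TEAD4-FL, to 1.34, 1.33 and 1.32 (no top 50 genes) with TEAD4-S, and to 1.5 and 1.48 in the RBM4-labelled library. Without the most abundant variant gene the last was 1.49. For TEAD4-S against TEAD4-FL it was 0.970, 0.974 and 0.921 under the 3 scalings and 0.790 without the most abundant gene.

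Counts of clustered genes depended on the filter. The shares of all genes at the other settings are not given here, so the values show only how the member counts moved. The 11, 9, 16 and 6 lower genes became 17 with YAP, 14 with TEAD4-FL and 11 in the RBM4-labelled library without a filter, and 0, 1, 3 and 0 with a mean of at least 10 CPM. With YAP there were 6 at a pseudocount of 2 CPM and 6 when the interval also had to lie beyond 1. With TEAD4-FL there were 14 at 1.5-fold, and with TEAD4-S 10 under each of the 3 other scalings. The higher genes, 1, 2, 1 and 2 in number, were 0 in every line at a pseudocount of 2 CPM, at a mean of at least 10 CPM and with the interval beyond 1. Without a filter there were 5 with YAP, 2 with TEAD4-S and 4 in the RBM4-labelled library, and at 1.5-fold 2 with YAP and 2 with TEAD4-S. For TEAD4-S there were also 2 under each other scaling and at a pseudocount of 0.1 CPM, and in the RBM4-labelled library 1 with DESeq2 size factors.

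Among variant genes, the higher count at 1.5-fold was 2 with YAP, 4 with TEAD4-FL and 2 in the RBM4-labelled library, where it was 0 under each other scaling and at a pseudocount of 2 CPM. The lower count without a filter was 2 with YAP, 2 with TEAD4-FL and 2 with TEAD4-S. With TEAD4-FL and TEAD4-S it was 0 at a pseudocount of 2 CPM, at a mean of at least 10 CPM and with the interval beyond 1, and at 1.5-fold it was 2 with TEAD4-S. The shares of all genes at these settings are not given here either. The cause of these shifts was not tested beyond what each setting leaves out.

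No paired analysis was possible because each line had 1 library. For the same reason no library could be left out, and the spread between cultures is unknown. Depth limits most clustered genes, since 18 of the 23 compared had a mean under 10 CPM.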
